A study of Triticum aestivum with 18 samples.

Results

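The measurements ask how far the change in leaf RNA between 0 h and 48 h of aphid infestation depended on the wheat line. The lines were TXGBE273, labelled resistant to the greenbug, and its near-isogenic partner TXGBE281, labelled susceptible. Leaves of greenhouse plants at the 3-leaf stage were taken at 0 h, which the labels call the control. Further samples followed greenbug biotype E infestation of 24 h and 48 h. The comparison used 12 of 18 arrays, 3 in each of the groups resistant 0 h, resistant 48 h, susceptible 0 h and susceptible 48 h. All were Affymetrix wheat arrays hybridised with biotin-labelled RNA. For each probe set, the set of array probes that reads one transcript, the susceptible line's change from 0 h to 48 h was subtracted from the resistant line's change. This value is called the line by infestation value below. A positive value means that the resistant line rose more or fell less, and a negative value means that it rose less or fell more. No uninfested plants at 48 h were analysed here, so each change covers infestation together with plant age and sampling time, which cannot be told apart.

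The greenbug is an aphid that feeds on phloem sap of cereals and injects saliva that damages the leaf of susceptible plants. Near-isogenic lines are bred to share most of their genome and to differ around an introgressed trait. Cereal leaves attacked by aphids are known to induce pathogenesis-related proteins such as glucanases, to release toxic benzoxazinoids from stored glucosides, and to lower the transcripts of photosynthesis.

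At 48 h 2337 of 46251 tested probe sets (5.05%) passed the test of the line by infestation value, limma with Benjamini-Hochberg adjusted p under 0.05, and are named "called" below. The value was above 0, called higher, for 1168 of them (2.53%) and below 0, called lower, for 1169 (2.53%). An unadjusted p under 0.05 was reached by 8171. The median value over all tested probe sets was 0.0442 on the log2 scale. Among the probe sets called higher the median was 1.15, with quartiles of 0.829 and 1.68. Among those called lower it was -1.4, with quartiles of -2.18 and -0.96. A value of at least 4 in size was found for 23 probe sets called higher and 31 called lower.

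The counts depended on scaling and on single arrays. On a scale set by the 18 bacterial hybridisation control probe sets, the median over all tested probe sets moved to -0.192 and the calls to 305 higher and 1211 lower. That put 20.1% of calls on the higher side, so the even split above holds relative to the common trimmed mean of 500.1 to which the deposited arrays had been scaled. Leaving out replicate 3 of the susceptible 48 h group left 1266 calls, and leaving out replicate 2 of the resistant 48 h group left 1507. No probe set called here was called in the opposite direction under any of the alternatives run.

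The lines were close to each other before infestation and apart after it. At 0 h 10 probe sets (0.0216%) were called between the lines, against 5586 (12.1%) at 48 h. Each line changed widely from 0 h to 48 h, with 15595 probe sets called for the resistant line (33.7%) and 17064 for the susceptible one (36.9%). These comparisons share arrays with the line by infestation value and stand beside it as its components. The median difference between the lines at 0 h was -0.0589 for the probe sets called higher and 0.088 for those called lower. A difference of at least 1 at 0 h was present for 4.11% of the first, 5.65% of the second and 4.84% of all tested probe sets.

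Relative to the common trimmed mean, the susceptible line's own change was more often the larger one in both directions, but for the probe sets called higher this did not hold on the hybridisation control scale. For the probe sets called higher, the resistant line's median change was 0.0576 and the susceptible line's -1.26. For those called lower the medians were 0.302 and 1.8. The change was larger in size in the susceptible line for 770 of the 1168 called higher (65.9%) and 945 of the 1169 called lower (80.8%), against 55.1% of all tested probe sets. On the hybridisation control scale the same probe sets gave 49.9% and 92.3%, against 63.4% of all tested. There the medians were 0.527 and -0.57 for those called higher, and 0.753 and 2.51 for those called lower. Both estimates pointed down for 564 of the probe sets called higher (48.3%), near the 40.7% of all tested. The resistant estimate was up and the susceptible one down for 399 (34.2%), against 13.4% of all tested. Both pointed up for 700 of those called lower (59.9%, against 33.3%), and the resistant estimate was down and the susceptible one up for 375 (32.1%, against 12.7%).

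**Figure D1:**
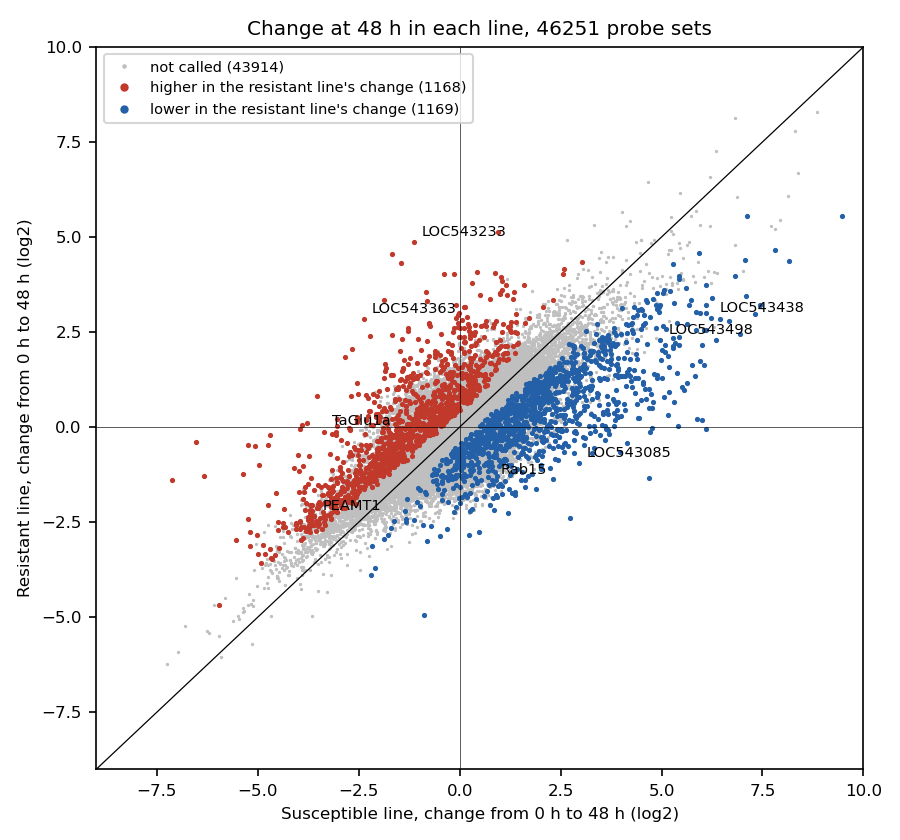
Each point is 1 of 46251 probe sets, with its log2 change from 0 h to 48 h in the susceptible line on the horizontal axis and in the resistant line on the vertical axis; the diagonal marks equal changes. The 1168 called higher (red) lie above the diagonal and the 1169 called lower (blue) below it, with the blue points reaching far to the right at small changes in the resistant line.

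Sorted by which line moved by at least 1 on the log2 scale, the susceptible line alone did so for 330 probe sets called higher (28.3%) and 482 called lower (41.2%), against 11.8% of all tested. The resistant line alone did so for 204 called higher (17.5%) and 112 called lower (9.58%), against 8.31% of all tested. Both moved the same way by at least 1 for 324 (27.7%) and 343 (29.3%), against 14.7% of all tested. Both moved that far in opposite directions for 45 called higher (3.85%) and 27 called lower (2.31%), against 0.281% of all tested. An increase of at least 1 in the susceptible line with the resistant line within 0.5 of its 0 h level was found for 273 probe sets called lower (23.4%), against 2.34% of all tested. The mirror case, an increase in the resistant line with the susceptible line within 0.5, was found for 131 called higher (11.2%), against 1.56% of all tested. A decrease of at least 1 in the susceptible line with the resistant line within 0.5 was found for 170 called higher (14.6%, against 2.82%). The same decrease in the resistant line alone was found for 73 called lower (6.24%, against 2.43%). These classes are built from the same arrays as the calls and describe them. They cut each line's own change at a fixed size relative to the common trimmed mean, and were not counted on the hybridisation control scale.

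**Figure D2:**
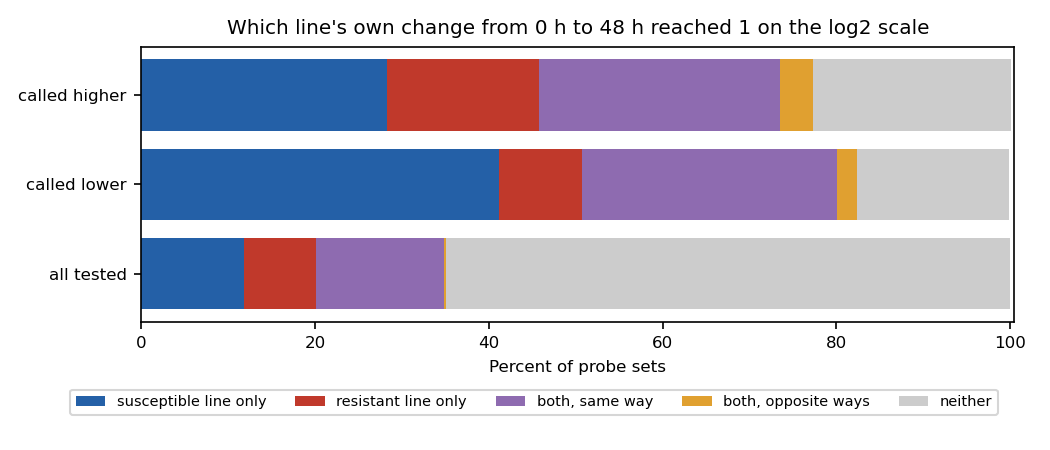
Bars give the percent of probe sets in each class, for those called higher, those called lower and all tested, by which line's own change from 0 h to 48 h reached 1 on the log2 scale. The susceptible line alone made up 28.3% of the probe sets called higher and 41.2% of those called lower, against 11.8% of all tested. Changes are relative to the common trimmed mean, and the classes were not counted on the hybridisation control scale.

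Only part of the called probe sets can be tied to a gene. The platform annotation gave a gene for 1096 tested probe sets, and 116 of these were called (10.6%), 47 higher and 69 lower, from 97 genes. Of those genes 9 carry a name and 88 only a LOC number, a gene identifier without a described product in the tables used here. No role is given for a LOC gene. The genes named below were mostly taken for the size of their value, so their sizes describe the extremes. None of them was called between the lines at 0 h.

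TaGlu1a codes for a β-glucosidase that releases benzoxazinones, defence compounds of wheat, from their stored glucosides. Its signal was 1194, 2284 and 1914 in the resistant line at 0 h and 2628, 936.6 and 1659 at 48 h. The susceptible values were 824.2, 980.5 and 1151 at 0 h and 90.5, 75.64 and 74.24 at 48 h. All susceptible arrays at 48 h lay far below the other 0 h and 48 h arrays, and the resistant groups at 0 h and 48 h overlapped. The line by infestation value was 3.26 ± 0.40 (SE, n = 3 arrays a group, limma adjusted p = 3.74e-05). In susceptible leaves the gene fell by 3.37 (adjusted p = 5.86e-09), while the resistant line's change was -0.12 (adjusted p = 0.802). The other gene of the benzoxazinoid and indole list was TSA, for the tryptophan synthase alpha subunit. Its 2 probe sets had values of 0.26 and -0.05 and were not called. Thus 1 of the list's 3 tested probe sets passed the test, set beside 10.6% of all annotated probe sets.

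The largest values among annotated genes were those of LOC543233 and LOC543234, which are neighbours with no gene between them in RefSeq's annotation of IWGSC CS RefSeq v2.1. The signal of LOC543233 was 769.1, 864.6 and 2136 in the resistant line at 0 h and 42320, 25370 and 34760 at 48 h. The susceptible values were 607, 426.8 and 307.7 at 0 h and 154.4, 190 and 224 at 48 h. Among these 12 arrays, the resistant ones at 48 h were the highest and the susceptible ones at 48 h the lowest. LOC543233 rose by 4.87 on the log2 scale in the resistant line and fell by 1.14 in the susceptible line, a line by infestation value of 6.01 ± 0.46 (SE, limma adjusted p = 1.28e-07). The susceptible change was -0.44 on the hybridisation control scale and not called (adjusted p = 0.31). Its other tested probe set gave 5.78. The lines already stood apart without overlap at 0 h, by 1.35, a difference that was not called.

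The signal of LOC543234 went from 391.5, 686.5 and 1392 in the resistant line at 0 h to 13490, 4015 and 7652 at 48 h. In the susceptible line it went from 455.4, 352.6 and 238.7 to 61.4, 62.8 and 128.8. The lines overlapped at 0 h and were far apart at 48 h. LOC543234 rose by 3.34 in the resistant line and fell by 1.88 in the susceptible line, and its line by infestation value was 5.22 ± 0.65 (SE, adjusted p = 4.16e-05). Probe sets of neighbouring or similar genes can share transcripts, and wheat carries 3 related copies of most genes, so the values of these probe sets may not be separate measurements. An unannotated probe set whose ID shares the number of the LOC543233 probe sets, Ta.21348.2.S1_at, had the highest value of all those called, 6.25 ± 0.49 (adjusted p = 1.41e-07).

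LOC543363 also moved in opposite directions in the lines. Its signal rose from 1449, 2568 and 3200 to 22510, 12060 and 16420 in the resistant line, and fell from 1504, 1168 and 1477 to 224, 253.7 and 279.4 in the susceptible line. The groups at 0 h overlapped and those at 48 h did not. The value was 5.22 ± 0.40 (SE, limma adjusted p = 1.01e-07). LOC542941 rose in the resistant line alone by the tests of the components, from 121.5, 171.7 and 128.4 to 3231, 2429 and 2052, with a value of 4.16 ± 0.70 (adjusted p = 0.00105). Its susceptible arrays stood at 14.62 to 125.8 at 0 h and 32.34 to 81.58 at 48 h, a change of -0.13 (adjusted p = 0.875).

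Of the 15 annotated genes with the highest values, the resistant estimate was up and the susceptible one down for 10, both were down for 3 and both up for 2. These counts go by the sign of the estimates, called or not. Among the 10, the susceptible changes of LOC542941 (-0.13) and LOC606359 (-0.14) were not called. Nor were the resistant changes of LOC100037588 (0.42), LOC780635 (0.36) and LOC542828 (1.01). LOC542947 went from 427.6, 589 and 417.4 to 688.7, 1155 and 796.5 in the resistant line and from 412.7, 381.2 and 285.6 to 79.61, 82.84 and 26.46 in the susceptible line, a value of 3.18. LOC542855 fell in both lines, from about equal levels of 22600 and 20980 (means of 3 arrays) to means of 10350 for resistant and 2774 for susceptible leaves, a value of 1.83. LOC542853 rose in both, from means of 2696 and 2542 to 12800 and 4743, a value of 1.35. For all 3 genes the arrays of the lines did not overlap at 48 h.

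LOC100049032 rose by 2.65 in the resistant line, with 0.64 in the susceptible line (adjusted p = 0.0556) and a line by infestation value of 2.01. LOC543245 fell by 1.47 in the susceptible line, with -0.07 in the resistant line (adjusted p = 0.839) and a value of 1.40. The remaining 5 genes had low signals. LOC606359 had a value of 2.75, with signals of 36.3 to 230.7 in the resistant line at 48 h and of 1.689 to 11.07 in the other groups used here. For comparison, the 40th percentile of an array's signals, below which a probe set counted as dim, was 50.8 to 70.1. LOC100037588 (2.65), LOC542828 (2.55), LOC543023 (2.36) and LOC780635 (1.70) had means between 23.34 and 291.4. For LOC542828 and LOC543023 the lines stood apart without overlap at 0 h, resistant minus susceptible -1.22 and -1.56, differences that were not called. At 48 h the differences were 1.33 (limma adjusted p = 0.0999) and 0.80 (adjusted p = 0.255), also not called. Other probe sets of LOC542828 (0.17) and LOC780635 (0.09 and 0.06) had values near 0 and were not called. LOC606359 and LOC543023 each had 1 further tested probe set that was not called. These 5 calls lay near the threshold. With 1 of the 12 arrays left out at a time, the call was lost for 5 arrays for LOC606359 (values from 2.22 to 2.79), 7 for LOC100037588 (2.19 to 2.68), 10 for LOC542828 (2.27 to 2.63), 3 for LOC543023 (1.97 to 2.22) and 10 for LOC780635 (1.58 to 1.78). The adjusted p was then 0.0509 to 0.121. On the hybridisation control scale LOC606359, LOC542828 and LOC780635 also lost the call. The sizes also depended on the offset added before the logarithm. With an offset of 0 LOC606359 had 5.52 and LOC542828 3.90, and with an offset of 64 LOC606359 had 1.41, LOC542828 1.36 and LOC100037588 1.73.

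Among the genes called lower, the leading pattern was a stronger increase in the susceptible line. Of the 15 annotated genes with the lowest values, both estimates were up for 9, and the resistant one down with the susceptible one up for 6. LOC543498 showed it with the least spread. Its signal went from 1571, 1416 and 1138 to 8941, 6527 and 5116 in the resistant line and from 1484, 902.6 and 1108 to 37280, 32570 and 38770 in the susceptible line. The lines overlapped at 0 h, and at 48 h every susceptible array was above every resistant one. It rose by 2.28 and by 4.96, a value of -2.68 ± 0.25 (SE, limma adjusted p = 1.37e-06). Its other tested probe set had a value of 1.11 and was not called (adjusted p = 0.391).

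LOC543438 rose by 2.86 in the resistant line and by 6.23 in the susceptible line. Its signal was 196, 470.7 and 176.5 before and 2682, 1489 and 1849 after infestation of the resistant line. Susceptible arrays had 105.8, 120.8 and 168.7 before and 11300, 9600 and 12000 after it. The susceptible arrays were all below the resistant ones at 0 h and all above them at 48 h. The value was -3.37 ± 0.42 (SE, adjusted p = 4.14e-05). Only this 1 of the 2 tested probe sets of LOC543438 was called. LOC606366 went from 318.1, 404.1 and 437.4 to 1727, 717.3 and 837.8 in the resistant line and from 265.4, 348.3 and 225.1 to 8429, 8471 and 8974 in the susceptible line. Here too the lines overlapped before infestation and not at 48 h. All 4 of its tested probe sets were called lower, with values of -3.52, -2.47, -1.11 and -0.96.

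LOC543085 rose in the susceptible line and not, by the test, in the resistant line. Susceptible arrays gave signals of 359, 208.7 and 317.1 at 0 h and 2015, 1887 and 3359 at 48 h. Resistant arrays gave 214.9, 325.8 and 265.6 at 0 h and 212.3, 93.02 and 107.5 at 48 h, a change of -0.95 (adjusted p = 0.0505). The susceptible arrays at 48 h stood above the other 0 h and 48 h arrays, and the value was -3.90 ± 0.52 (SE, adjusted p = 8.37e-05). LOC543445 and, on the probe sets with their largest values, LOC543003 and LOC542993 fell in the resistant line and rose in the susceptible line. Only the fall of LOC543445 was also called on every other scaling tried. LOC543003 had a value of -3.51, from changes of -0.69 and 2.82. LOC542993 had a value of -2.49, from -0.81 and 1.68, and LOC543445 of -2.48, from -1.54 and 0.94. On the hybridisation control scale the resistant changes were -0.25 for LOC543003 (adjusted p = 0.571) and -0.33 for LOC542993 (adjusted p = 0.314). The other probe sets of LOC542993, with values of -1.56 and -1.05, had resistant changes of -0.35 and -0.21 that were not called.

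The other genes of this group rose in the susceptible line. LOC543196 (-3.50), LOC542830 (-2.45) and LOC543399 (-3.96) also rose in the resistant line. LOC543399 started from low signals. Its susceptible arrays were all dim at 0 h, at 9.534, 11.17 and 11.24, before reaching 1260, 791 and 1303. Resistant arrays read 9.476, 8.962 and 64.82 at first, then 105, 62.61 and 87.88, so the 2 times overlapped. Over the alternatives the value of LOC543399 ranged from -4.45 to -3.21 and stayed called. Another probe set of LOC543399 had a value of 0.30 and another of LOC542830 had -0.80, and neither was called. For LOC100125731 (-3.26), LOC542876 (-2.95), LOC542774 (-2.70) and the LOC100037659 probe set with the largest value (-2.62) the resistant line's change was not called, at 0.65, -0.51, -0.07 and 0.32. LOC100037659's second called probe set (-0.96) rose in the resistant line by 1.06 (adjusted p = 4.19e-05). The call of LOC542876 was lost without replicate 3 of the susceptible 48 h group, at -2.78 (adjusted p = 0.0519), and an offset of 64 gave -1.89.

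LMGli2482 is a gliadin, a storage protein of the wheat grain. Its signal was 5.215, 8.792 and 7.48 in the resistant line at 0 h and 302.1, 11.64 and 110.7 at 48 h. The susceptible values were 6.139, 10.02 and 5.339 at 0 h and 870.8, 1756 and 2060 at 48 h. All arrays at 0 h were dim, the resistant arrays at 48 h were spread widely, and the susceptible ones lay above them. The value was -3.84 ± 1.05 (SE, limma adjusted p = 0.0375), and the gene's other probe set gave -3.41 (adjusted p = 0.0517). For LMGli2482, 10 of the 12 arrays, when left out singly, took the call away (values of -3.99 to -2.89, adjusted p = 0.0625 to 0.11). An offset of 0, no filter and no variance trend each took it away as well. Of the grain list, 4 of 7 annotated probe sets were bright enough to be tested. Only 1 of the 4, of LMGli2482, was called, set beside 10.6% of all annotated probe sets. GAG56D, also of the grain list, had values of -1.12 and -0.79.

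**Figure D3:**
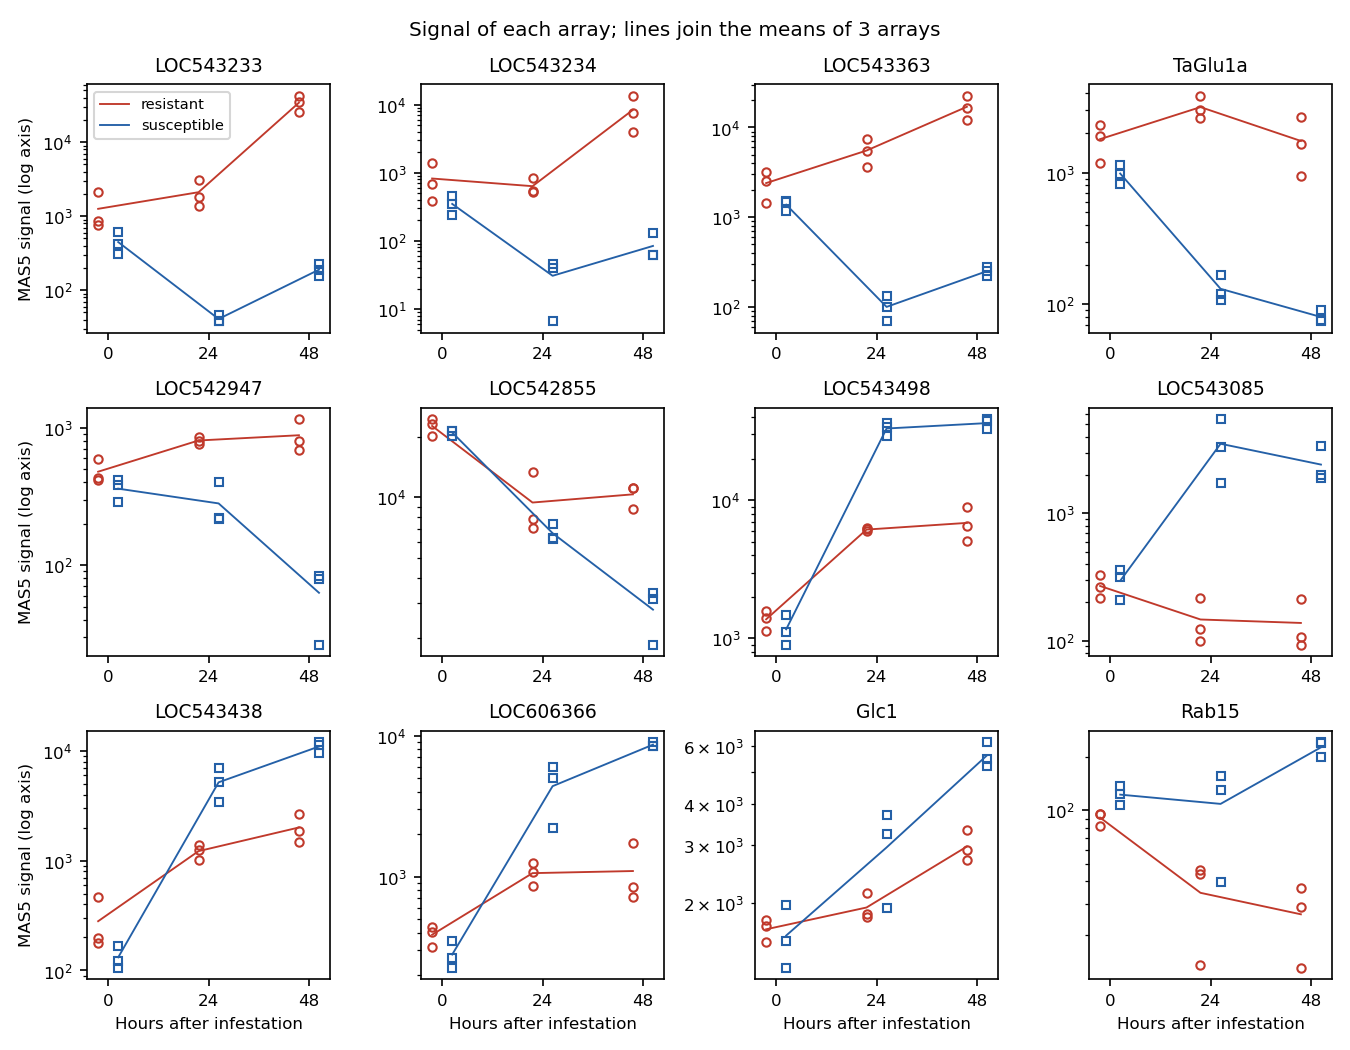
Deposited signal of each array on a log axis at 0 h, 24 h and 48 h for 12 genes, with resistant arrays as red circles, susceptible arrays as blue squares (drawn slightly apart around each time) and lines through the means of 3 arrays. LOC543233, LOC543234 and LOC543363 part upward in the resistant line, TaGlu1a is lower in the susceptible line, and LOC543498, LOC543438 and LOC606366 are higher in the susceptible line at 48 h.

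Named defence genes were few in the annotation, with 3 tested probe sets of pathogenesis-related genes. Glc1 codes for a β-1,3-glucanase, a class of pathogenesis-related protein. Its signal went from 1709, 1523 and 1775 to 3326, 2699 and 2892 in the resistant line and from 1977, 1276 and 1542 to 5197, 5491 and 6152 in the susceptible line. On this probe set it rose in both lines, with every susceptible array above every resistant one at 48 h. The value was -1 ± 0.26 (SE, limma adjusted p = 0.0291), and a dimmer probe set of the gene had -1.69 (adjusted p = 0.268). For Glc1, 7 of the 12 arrays, when left out singly, took the call away (values of -0.98 to -0.85, adjusted p = 0.0611 to 0.0877). Its call was also lost without the variance trend. PR5, a thaumatin-like pathogenesis-related gene, had -0.91 and was not called. Thus 1 of these 3 was called, lower, set beside 10.6% of all annotated probe sets.

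None of the 4 tested probe sets of protease and xylanase inhibitors was called. The serpin WSZ2a had a value of -2.11 (adjusted p = 0.0687), WSZ1b of 1.57 (adjusted p = 0.154) and the xylanase inhibitor XIP-I of -0.17 and -0.47. None of the 5 peroxidase and peroxiredoxin probe sets (values from -0.03 to 0.77) and none of the 8 of redox and detoxification (from -0.13 to 0.59) was called. These p-values do not show that the lines responded alike.

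Leaf identity was checked with genes of photosynthesis, and PsbO, PsbP and PRK were bright on all arrays used. Of the 20 tested rbcL probe sets, 11 were above the array's 40th percentile on all 12 arrays and 9 fell below it on at least 1. PsbO and PsbP are extrinsic proteins of the water-splitting side of photosystem II, and PRK is phosphoribulokinase of the Calvin cycle. The called PsbP probe set went from 51080, 55170 and 55550 to 13810, 16610 and 18050 in the resistant line and from 50900, 51890 and 46720 to 9289, 8893 and 7363 in the susceptible line. It fell in both lines, and the lines overlapped at 0 h and not at 48 h. The value was 0.81 ± 0.22 (SE, limma adjusted p = 0.035), and 10 of the 12 arrays, when left out singly, took the call away (values of 0.71 to 0.85, adjusted p = 0.0509 to 0.114). The PsbP call was also lost on the hybridisation control scale, without the filter and without the variance trend. Over all alternatives its value went down to 0.55 and its adjusted p up to 0.361. In bulk leaf tissue, fewer cells of a type and less RNA per cell cannot be told apart. The gene's brighter probe set had 0.40 (adjusted p = 0.172), PRK 0.61 (adjusted p = 0.179) and PsbO 0.22 (adjusted p = 0.595).

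The photosystem list thus had 1 of 5 tested probe sets called, set beside 10.6% of all annotated probe sets, with a median of 0.401 against 0.0442 over all tested probe sets. None of the 25 probe sets of carbon fixation and triose phosphates was called, 20 of them for rbcL, the large subunit of Rubisco. Their median was 0.0492. GAPN, a glyceraldehyde phosphate dehydrogenase, had 1.21 (adjusted p = 0.0801), from changes of -2.81 and -4.02. Among 5 probe sets of sugar, fructan and starch genes none was called, and the fructan exohydrolase 1-FEH had -0.49 (adjusted p = 0.0696).

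PEAMT1 codes for phosphoethanolamine N-methyltransferase, which makes the choline head group of membrane lipids. Its signal went from 15900, 17770 and 12340 to 2373, 3249 and 3409 in the resistant line and from 12620, 18640 and 16450 to 1517, 1231 and 1100 in the susceptible line. It fell in both lines, further in the susceptible one, and the arrays at 48 h did not overlap. The value was 1.26 ± 0.31 (SE, limma adjusted p = 0.0206), and 6 of the 12 arrays, when left out singly, took the call away (values of 1.12 to 1.23, adjusted p = 0.0508 to 0.0688). PEAMT1 also lost the call on the hybridisation control scale and without the variance trend. Rab15 belongs to the dehydrins, proteins that accumulate with abscisic acid and drought. It fell in the resistant line from 95.22, 95.85 and 82.14 to 28.69, 13.11 and 36.66, while the susceptible arrays stood at 136.1, 123.9 and 107.4 and then 240.9, 237.4 and 198.2, a change that was not called (adjusted p = 0.133). The resistant change was not called on the hybridisation control scale, at -0.99 (adjusted p = 0.0749). The lines did not overlap at either time. The value of Rab15 was -2.19 ± 0.57 (SE, adjusted p = 0.0296), and its other probe set had -2.13 (adjusted p = 0.103). Again 8 of the 12 arrays, when left out singly, took the call away (values of -2.27 to -1.94, adjusted p = 0.0565 to 0.0832), and an offset of 64 gave -1.42.

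Of 14 tested probe sets of cytoskeleton, histone and cell division genes, 2 were called, set beside 10.6% of all annotated probe sets, and both were lower. They belong to β-tubulins, subunits of microtubules. Tubb5 rose by 1.02 in the resistant and by 3.11 in the susceptible line, a value of -2.09 ± 0.53 (SE, limma adjusted p = 0.0259), while its other 3 probe sets had -0.84, -0.53 and -0.33 and were not called. Its susceptible arrays at 0 h were spread, at 214, 33.47 and 43.05. For tubb1 the value was -0.72 ± 0.18 (adjusted p = 0.0227), from -0.33 and 0.39. For each of these genes 7 of the 12 arrays took the call away when left out singly (values of -2.09 to -1.68 and adjusted p = 0.0512 to 0.0747 for Tubb5, and -0.71 to -0.60 and 0.0516 to 0.0724 for tubb1). Both also lost the call without the variance trend, and tubb1 on the hybridisation control scale. UBC1, a ubiquitin-conjugating enzyme that hands ubiquitin to proteins marked for breakdown, had values of -1.10 (adjusted p = 0.00822) and -0.50 (adjusted p = 0.0189) on 2 of its 3 probe sets. The first fell by 0.47 in the resistant line and rose by 0.63 in the susceptible line, and on the hybridisation control scale its resistant change was 0.

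Across the 24 gene lists, 19 had a tested probe set and 8 had a call. Of the 103 tested probe sets in lists, 3 were called higher and 7 lower (9.71%), close to the 10.6% over all annotated probe sets. None of the 8 translation probe sets was called. The lists of jasmonate synthesis, transcription factors, kinases, calcium signalling and lectins matched no annotated symbol. The tables used here hold no gene descriptions, so members of these groups may be among the genes with only a LOC number.

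**Figure D4:**
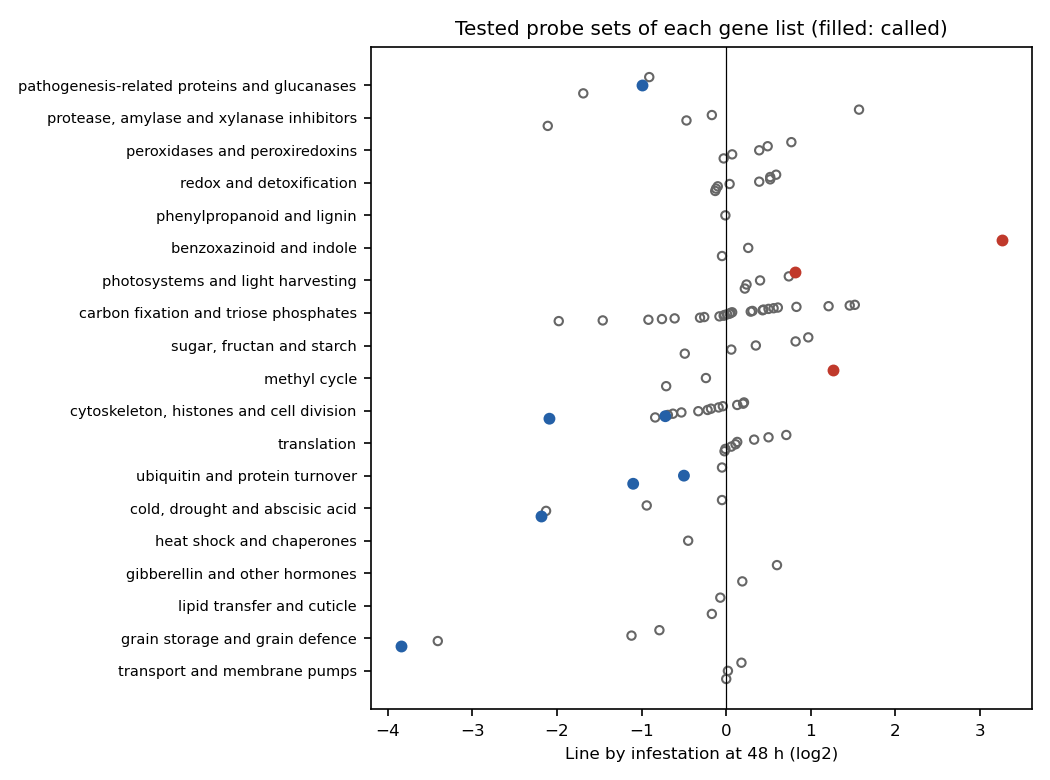
Line by infestation value at 48 h (log2, resistant change minus susceptible change) of each tested probe set, by gene list; filled points were called, in red for higher and blue for lower. Calls were 3 higher (TaGlu1a, PsbP, PEAMT1) and 7 lower, and the carbon fixation points centre near 0 with none called.

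Some of the strongest shared responses were not called for a difference between the lines, which does not show that the changes were equal. LOC543330 rose from means of 1310 and 1039 to 29780 for resistant and 36070 for susceptible leaves, a value of -0.61 with a 95% confidence interval of -1.38 to 0.15 (limma adjusted p = 0.422). The glyoxalase gene lgul, whose enzyme detoxifies methylglyoxal, fell from means of 7431 and 7250 to 229.9 and 137.8, a value of 0.52 with an interval of -0.54 to 1.58. LOC543104, LOC543499 and LOC100037528 fell in both lines by 4.83 or more, with values of -0.58, 0.51 and 0.51 that were not called. The sign of LOC543499 turned to -0.17 without replicate 3 of the susceptible 48 h group. LOC100125679, which also fell in both lines, had 1.42 (adjusted p = 0.0569). Of the strongest shared rises, LOC543196 and LOC543438 were called lower, at -3.50 and -3.37. The LMGli2482 probe set among these rises had -3.41 (adjusted p = 0.0517). LOC543097 rose by 3.60 and by 5.07 and was called lower, at -1.47 (adjusted p = 0.0251), and 6 of the 12 arrays, when left out singly, took the call away (values of -1.42 to -1.29, adjusted p = 0.0577 to 0.0776). It was also lost without the variance trend.

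The largest values of all belonged mostly to probe sets without a gene. Ta.23763.1.S1_at had signals of 31530, 27040 and 28290 on the susceptible arrays at 0 h and of 215.2, 344.4 and 341.5 at 48 h. Its resistant arrays read 27330, 43070 and 33770 and then 36320, 19070 and 25470. Of the 12 arrays at 0 h and 48 h, the susceptible ones at 48 h stood far below the rest. The value was 6.15 ± 0.42 (SE, limma adjusted p = 2.78e-08). TaAffx.1074.1.S1_at (5.72), TaAffx.90316.1.S1_at (5.04) and Ta.12396.1.S1_at (4.78) also fell in the susceptible line, with changes of -7.12, -6.34 and -5.25. Their resistant changes were -1.39 (adjusted p = 8.74e-05), -1.30 (adjusted p = 0.0943) and -0.47 (adjusted p = 0.443), so the first fell in both lines.

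In the other direction TaAffx.132143.1.S1_s_at went from 451, 305.7 and 449.5 to 27540, 24320 and 27340 in the susceptible line, while the resistant line had 508, 385.3 and 321.3 and then 333.2, 665.5 and 426.8. The resistant groups overlapped, and the value was -5.81 ± 0.35 (SE, adjusted p = 6.78e-09). TaAffx.108005.1.S1_at (-6.15), TaAffx.123181.1.S1_at (-6.05), TaAffx.122333.1.S1_at (-5.67) and Ta.20549.1.S1_s_at (-5.37) rose in the susceptible line as well. Of these, only TaAffx.123181.1.S1_at had a called resistant change, of -1.35 (adjusted p = 0.0338). That change was not called under quantile normalization or on the hybridisation control scale.

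The value at 48 h was set against that at 24 h, which uses the same 0 h arrays. At 24 h 738 probe sets were called (1.6%), with medians of 0.576 and -0.964 for the probe sets called higher and lower at 48 h. The difference between the times, in which the 0 h arrays cancel, was called for 20 probe sets (0.0432%), 16 higher and 4 lower, and 3223 reached an unadjusted p under 0.05. Without the variance trend this count was 0, and leaving out single arrays gave 11 to 67. It fell to 13 without resistant 24 h replicate 2, to 12 without resistant 24 h replicate 3, and to 11 without either resistant 48 h replicate 3 or susceptible 48 h replicate 1. It rose to 33 without resistant 24 h replicate 1 and to 67 without resistant 48 h replicate 1.

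Of the 20, 3 were annotated, and all were lower at 48 h. LOC543003 had -1.38 at 24 h and -3.51 at 48 h, a difference of -2.12 (limma adjusted p = 0.0266). LOC606363, named after its values were seen, had -0.23 and -1.59, a difference of -1.36 (adjusted p = 0.0274). A probe set of LOC606366 had -0.13 and -0.96 (adjusted p = 0.0266). The probe set Ta.21348.2.S1_at had the highest difference, 3.40 (adjusted p = 0.00895), from 2.85 and 6.25. TaGlu1a had 3.61 and 3.26, LOC543363 had 4.82 and 5.22, and LOC543498 had -2.68 at both times, and their differences between the times were not called.

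Calls were more frequent among bright probe sets. In 4 equal classes of the tested probe sets by mean signal, from dimmest to brightest, 0.64%, 1.73%, 5.53% and 12.3% were called, and the median SE of the value was 0.805 in the dimmest and 0.185 in the brightest class. Whether noise or fewer differing genes lay behind the lower share of dim probe sets was not tested. Of 48 named probe sets that were called, 34 kept the call in all 23 alternatives run for them and 14 lost it in at least 1. Those 14 include Glc1, PsbP, PEAMT1, Tubb5, tubb1, Rab15 and LMGli2482. TaGlu1a, LOC543233, LOC543234, LOC543363, LOC543498, LOC543438, LOC606366 and LOC543085 were among the 34.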

How the data were processed

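Leaf RNA of 18 wheat samples was measured on Affymetrix arrays in 1 colour. The deposited values were probe-set intensities on a linear scale, made by the authors with MAS5 per the submitters' processing notes, which give no version. The trimmed mean was 500.1 on every array, the mark of a common scaling by the authors. Detection calls were not used here. Whether the replicates are separate plants is not stated in the labels. The p-values therefore reflect only the spread between these samples, which may be technical. With 3 arrays a group, their number limits the precision.

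Of 61290 probe sets, 111 controls were left out. The other intensities were turned into log2(signal + 16), and no further normalization was applied. The offset understates the changes at low signals. Tested were the 46251 probe sets that exceeded the 40th percentile of their array in at least 3 of 18 arrays, which removed 14928. The 6 groups entered 1 linear model in limma 3.58.1 (R 4.3.3), with a variance trend on the mean signal. The p-values were adjusted by the Benjamini-Hochberg method over all tested probe sets and called at adjusted p under 0.05. The steps were tested on simulated data of 46251 probe sets, of which 100 were given a difference of 1 and 100 a difference of 2. The line by infestation test found 15% and 40% of them, with 1 false call. With so few changed probe sets the simulation differs from the data. Probe sets that were not called may still differ between the lines. Signal levels in the text are the deposited values, and changes are on the log2(signal + 16) scale.

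Genes were taken from the old platform annotation, with 1 symbol for 1273 probe sets. Of 771 genes, 770 were found in the RefSeq table of IWGSC CS RefSeq v2.1. Since the study names no assembly, coordinates are left out, and the gene and probe sequences were not used here. Roles of named genes are background knowledge.

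The comparison, the 24 gene lists and the rules were chosen with earlier results of these data known. Named were the 15 annotated genes with the largest called values in each direction, up to 4 called genes of each list a direction, the 5 largest called probe sets without a gene a direction, the strongest responders shared by both lines, and the leaf genes rbcL, PsbO, PsbP and PRK. List members beyond these were named with their values seen. Alternatives were quantile normalization, median centring, scaling on hybridisation controls, offsets of 0 and 64, no filter and a 60th percentile filter, no variance trend, only the 12 arrays at 0 h and 48 h, array weights, a block on the replicate number, and fits that leave out 1 array at a time.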

Additional observations from a re-analysis of the deposited data

Results flagged for a closer look

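The lines' changes from 0 h to 48 h differed, at limma adjusted p under 0.05, for the 2337 probe sets called. The line by infestation test is itself the test of the difference between the lines' changes. The difference between the values at 48 h and 24 h was tested in the same way and was called for 20 probe sets.

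Among named genes the line by infestation value, on the log2 scale, was above 0 for LOC543233 (6.01), LOC543234 (5.22), LOC543363 (5.22), LOC542941 (4.16), TaGlu1a (3.26), LOC542947 (3.18), LOC606359 (2.75), LOC100037588 (2.65) and LOC542828 (2.55). The same held for LOC543023 (2.36), LOC100049032 (2.01), LOC542855 (1.83), LOC780635 (1.70), LOC543245 (1.40), LOC542853 (1.35), PsbP (0.81) and PEAMT1 (1.26). It was below 0 for LOC543399 (-3.96), LOC543085 (-3.90), LMGli2482 (-3.84), LOC606366 (-3.52), LOC543003 (-3.51), LOC543196 (-3.50), LOC543438 (-3.37), LOC100125731 (-3.26) and LOC542876 (-2.95). It was also below 0 for LOC542774 (-2.70), LOC543498 (-2.68), LOC100037659 (-2.62), LOC542993 (-2.49), LOC543445 (-2.48), LOC542830 (-2.45), Glc1 (-1), Tubb5 (-2.09) and tubb1 (-0.72). Further values below 0 were those of UBC1 (-1.10), Rab15 (-2.19) and LOC543097 (-1.47).

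Among probe sets without a gene it was above 0 for Ta.21348.2.S1_at (6.25), Ta.23763.1.S1_at (6.15), TaAffx.1074.1.S1_at (5.72), TaAffx.90316.1.S1_at (5.04) and Ta.12396.1.S1_at (4.78), and below 0 for TaAffx.108005.1.S1_at (-6.15), TaAffx.123181.1.S1_at (-6.05), TaAffx.132143.1.S1_s_at (-5.81), TaAffx.122333.1.S1_at (-5.67) and Ta.20549.1.S1_s_at (-5.37). With 3 arrays in a group, single arrays were not tested as outliers.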

How the results depend on the processing

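The 2337 calls became 1516 on the hybridisation control scale (305 higher, 1211 lower) and 1238 without the variance trend, and lay between 1266 (without replicate 3 of the susceptible 48 h group) and 2892 with single arrays left out. Other settings gave 2076 to 2729. The 20 calls of 48 h against 24 h became 9 on the hybridisation control scale, 0 without the variance trend and 44 with array weights, and 11 to 67 with single arrays left out. The causes were not tested. The replicate block gave 2541 and 36 calls. The labels do not say whether the replicate numbers pair the arrays. Correlations of deviations between same-numbered arrays were low, from -0.0397 to 0.0615. Among the arrays of other groups, 10 of 18 arrays correlated best with one of their own number. The count expected without pairing was not worked out, so pairing was not settled.

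Of the main calls, 57.8% were shared on the hybridisation control scale, 50.6% without the variance trend, 53.3% without replicate 3 of the susceptible 48 h group and 61.3% without replicate 2 of the resistant 48 h group, and none was reversed in any setting. LOC543499, not called, lay between -0.17 (without replicate 3 of the susceptible 48 h group) and 1.21 (without replicate 1 of the resistant 48 h group) with single arrays left out, against 0.51.

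The 14 named probe sets that lost a call lay near the threshold in the main fit. The call was lost on the hybridisation control scale for LOC606359, LOC542828, LOC780635, PsbP, PEAMT1 and tubb1. Without the variance trend LOC100037588, LOC543023, LOC780635, LMGli2482, Glc1, PsbP, PEAMT1, Tubb5, tubb1 and LOC543097 lost it. An offset of 0 took it from LOC100037588, LOC542828 and LMGli2482, and dropping the filter from LOC780635, LMGli2482 and PsbP. Leaving out single arrays took the call away as follows. LOC100037588, LOC542828, LOC780635, LMGli2482, Glc1, PsbP, Rab15 and LOC543097 lost the call without resistant 0 h replicate 1. LOC542828, LOC780635, LMGli2482, PsbP, Tubb5, tubb1, Rab15 and LOC543097 lost the call without resistant 0 h replicate 2. LOC100037588, LOC780635, LMGli2482, Glc1, PsbP and PEAMT1 lost the call without resistant 0 h replicate 3. LOC606359, LOC100037588, LOC542828 and LOC780635 lost the call without resistant 48 h replicate 1. LOC100037588, LOC542828, LOC543023, LOC780635, LMGli2482, Glc1, PsbP, PEAMT1, Tubb5, tubb1, Rab15 and LOC543097 lost the call without resistant 48 h replicate 2. LOC606359, LOC542828, LMGli2482, Glc1, PsbP, PEAMT1, Tubb5, tubb1 and LOC543097 lost the call without resistant 48 h replicate 3. LOC100037588, LOC542828, LOC780635, LMGli2482, PsbP and LOC543097 lost the call without susceptible 0 h replicate 1. LOC606359, LOC100037588, LOC542828, LOC543023, LOC780635, LMGli2482, Glc1, PsbP, PEAMT1, Tubb5, tubb1 and Rab15 lost the call without susceptible 0 h replicate 2. LOC542828, LOC780635, LMGli2482, Glc1, PsbP, PEAMT1, Tubb5, tubb1 and Rab15 lost the call without susceptible 0 h replicate 3. LOC100037588, LOC780635, Tubb5 and Rab15 lost the call without susceptible 48 h replicate 1. LOC606359, LOC542828, LOC780635, LMGli2482, PsbP, tubb1 and Rab15 lost the call without susceptible 48 h replicate 2. LOC606359, LOC542828, LOC543023, LMGli2482, LOC542876, Glc1, PsbP, PEAMT1, Tubb5, tubb1, Rab15 and LOC543097 lost the call without susceptible 48 h replicate 3. Their values then kept their sign.

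Low signals, replicates of unstated origin, the lack of uninfested plants at 48 h here and an annotation that names few genes limit what can be read. The fit to 12 arrays gives no value for the comparison of 48 h with 24 h.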
